A study of Mus musculus with 2 samples.

Results

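Chromatin occupancy of TRα1, a receptor of thyroid hormone, was examined in brown adipocytes around 10 genes of the circadian clock: Arntl, Nr1d1, Nr1d2, Per1, Per2, Per3, Cry1, Dbp, Tef and Bhlhe40. Of the 5107 peaks in the deposited list, each called a TR binding site (TRBS) here, 33 had their summit within 100 kb of the transcription start site (TSS) of a clock gene, and 18 of these lay within 30 kb. The genes were chosen with the TRBS of these data in view, so the number, position and strength of their TRBS are given as a description and were not tested. The tissue was brown fat of male C57BL/6J mice aged 8 to 12 weeks, whose brown adipocytes alone expressed TRα1 carrying a GS tag. All animals ate food with propylthiouracil, which stops the thyroid from making hormone, for 2 weeks and were then given thyroid hormone during 24 h. Both libraries came from such animals: 1 from chromatin precipitated with an antibody directed at TRα1, and 1 from input chromatin with no antibody. There was no replicate of either library, the labels do not say how many animals were pooled, and hypothyroid animals without hormone were not analysed here.

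The clock is a loop of transcription factors. BMAL1, the product of Arntl, pairs with CLOCK on E-boxes and activates the Per and Cry genes, whose proteins then block this pair, while the nuclear receptors REV-ERBα and REV-ERBβ (Nr1d1 and Nr1d2) repress Arntl. DBP and TEF act on D-boxes in output genes, and BHLHE40 represses through E-boxes. In brown fat, REV-ERBα is known as a repressor of Ucp1, the gene of the uncoupling protein that makes heat. TRs usually bind DNA with RXR on the DR4 element, which places the half-site AGGTCA in tandem with 4 bp between the copies.

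The sequences at the summits show what the receptor-bound chromatin of these genes holds. They are given 5′ to 3′ on the plus strand of GRCm38 for the strongest TRBS of each gene that had one within 30 kb, with 50 bp on each side of the summit, widened for the TRBS of Tef at 27554 bp to take in its DR4 and for that of Nr1d1 at 1368 bp to take in an E-box. The windows are shorter than the TRBS, so further elements can lie outside them, as E-boxes did at Nr1d2, Bhlhe40 and the Tef TRBS at 8348 bp. A further TRBS of Tef with a DR4 at its summit, and a pair of further Nr1d1 TRBS with an E-box, were added after their values were seen. Capitals mark the closest match to the DR4 in the window, exact half-sites (AGGTCA or GGGTCA, either strand) and E-boxes (CACGTG), and the distances in the names are from the summit to the TSS of the gene.
Nr1d2 site 775 bp downstream, chr14:18238302-18238402: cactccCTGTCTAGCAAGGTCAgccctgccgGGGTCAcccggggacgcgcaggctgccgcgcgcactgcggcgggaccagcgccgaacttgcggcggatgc
Dbp site 2770 bp downstream, chr7:45707808-45707908: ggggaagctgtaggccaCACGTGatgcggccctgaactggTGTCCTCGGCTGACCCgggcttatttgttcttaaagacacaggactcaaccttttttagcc
Tef site 27554 bp upstream, chr15:81774817-81774941: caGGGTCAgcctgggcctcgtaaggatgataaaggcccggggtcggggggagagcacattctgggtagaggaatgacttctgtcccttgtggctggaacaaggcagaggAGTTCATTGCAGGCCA
Tef site 8348 bp downstream, chr15:81810719-81810819: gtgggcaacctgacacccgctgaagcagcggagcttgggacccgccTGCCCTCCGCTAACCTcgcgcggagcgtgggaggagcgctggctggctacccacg
Bhlhe40 site 825 bp upstream, chr6:108659754-108659854: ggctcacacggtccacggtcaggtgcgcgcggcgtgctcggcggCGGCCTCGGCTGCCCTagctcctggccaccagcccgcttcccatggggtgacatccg
Per3 site 228 bp upstream, chr4:151044843-151044943: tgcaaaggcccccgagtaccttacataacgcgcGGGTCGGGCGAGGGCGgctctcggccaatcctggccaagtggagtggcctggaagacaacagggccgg
Per2 site 22674 bp downstream, chr1:91436600-91436700: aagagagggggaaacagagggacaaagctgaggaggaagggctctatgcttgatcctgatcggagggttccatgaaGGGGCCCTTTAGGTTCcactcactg
Nr1d1 site 1368 bp downstream, chr11:98773874-98774015: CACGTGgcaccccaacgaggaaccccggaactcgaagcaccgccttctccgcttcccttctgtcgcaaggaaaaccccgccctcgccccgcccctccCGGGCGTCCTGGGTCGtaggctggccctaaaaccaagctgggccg
Nr1d1 site 346 bp upstream, chr11:98775629-98775729: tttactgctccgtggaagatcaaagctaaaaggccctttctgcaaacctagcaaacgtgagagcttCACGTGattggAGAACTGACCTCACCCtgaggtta
Nr1d1 site 24705 bp downstream, chr11:98750578-98750678: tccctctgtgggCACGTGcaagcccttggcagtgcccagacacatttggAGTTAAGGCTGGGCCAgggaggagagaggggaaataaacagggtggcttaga
The DR4 had 2 mismatches over its 12 half-site bases in the windows of Dbp and in both windows of Tef. In the other 7 windows the closest match had 3 to 5 mismatches, so the capitals there mark no DR4 under the limit of 2 used below.

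At 30 kb, the distance at which the study attached a TRBS to a gene, occupancy was found for 7 of the 10 clock genes: Nr1d1, Nr1d2, Per2, Per3, Dbp, Tef and Bhlhe40. Of all 21938 protein-coding genes, 3659 (16.7%) had one. Arntl had its closest TRBS just beyond this limit, and Per1 and Cry1 had none within 100 kb. Within 100 kb, 8 of the 10 genes had a TRBS, against 38.3% of all protein-coding genes. At least 3 TRBS within 30 kb were found for Nr1d1 (6), Tef (4) and Bhlhe40 (3), against 1.75% of all protein-coding genes. A TRBS within 1 kb of the TSS was found for Nr1d1, Nr1d2, Per3 and Bhlhe40, against 3.02% of all protein-coding genes. The same 7 genes had one when only peaks from a score of 60 upwards were kept, the threshold of the study, where the score is 10 times the −log10 of the q-value of the peak. Of all protein-coding genes, 14.1% had one under this threshold. Since the genes were selected on these peaks, the shares of all genes are background figures and nothing about the clock genes is read from the difference.

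**Figure D1:**
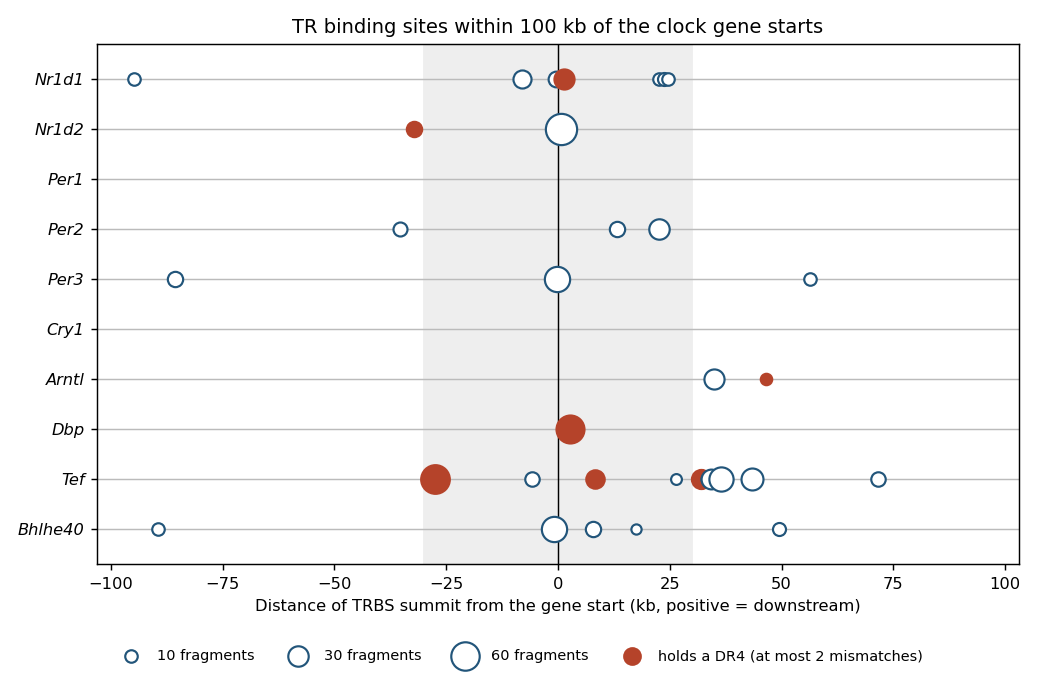
Position of the 33 TRBS within 100 kb of the TSS of the 10 clock genes (x axis, distance of the summit from the TSS in kb, positive downstream; y axis, gene). Circle area increases with the number of ChIP fragments at the summit, filled circles hold a DR4 with at most 2 mismatches, and the shaded band marks 30 kb. Nr1d1, Nr1d2, Per3 and Bhlhe40 have a TRBS at the start, while the lines of Per1 and Cry1 are empty.

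The strength of each TRBS is given as ChIP fragments at its summit, a whole number worked out from the deposited fold and p-value. The background is given with it, on the scale of the ChIP library. The lowest background of all TRBS was 0.430, and TRBS of Arntl, Nr1d1, Tef and Bhlhe40 shared exactly this value. It acts as a floor of the list, so a fold over 0.430 does not rest on input measured at that site. The 18 TRBS within 30 kb had a median of 20 fragments and ranged from 6 to 73, while all 5107 TRBS had a median of 17. The 15 TRBS between 30 and 100 kb had a median of 14, which brought the median of all 33 within 100 kb to 16. The fold enrichment of the 18 over input had a median of 10.003 and a range of 4.41 to 43.4, against a median of 9.83 for all TRBS. The median fold was 7.69 between 30 and 100 kb and 8.39 for all 33. On both measures, the median was above that of all TRBS at the 30 kb limit and below it at 100 kb. More fragments than the median of all TRBS were found at 9 of the 18 (50.0%), so no shift in strength is read from these medians. More than 27 fragments, the upper quartile of all TRBS, were found at 7 of the 18, and 24.5% of all TRBS exceeded this value. These 7 belonged to all 7 genes, 1 each. Errors below are 95% exact Poisson intervals of a fragment number or 95% Wilson intervals of a share, and they cover counting error only. Fragments without molecular identifiers need not be separate molecules, and no replicate error can be given.

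Arntl encodes BMAL1, the activator at the centre of the loop. It had no TRBS within 30 kb and 2 within 100 kb, both in intron 2 of its 20-exon transcript on chromosome 7 (gene at chr7:113207465-113314126, plus strand). The first, at chr7:113241933-113242498, lay 34787 bp downstream of the TSS. It had 29 fragments (19.4 to 41.6) over a background of 0.430, a fold of 20.98. It held no DR4 with at most 2 mismatches. A shorter, non-coding transcript of Arntl with a retained intron starts 2498 bp upstream of this summit, so the TRBS comes within the limit when any annotated transcript start is used. The second, at chr7:113253924-113254208, was 46557 bp downstream and weak, with 8 fragments (3.45 to 15.8) over 0.430, a fold of 6.29 and a score of 56. It held the DR4 GGGGCATCCGAGGTCA, with 2 mismatches, 14 bp from its summit. The weaker of the pair was therefore the one with the element.

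Nr1d1 encodes REV-ERBα, a repressor of Arntl, and had 6 TRBS within 30 kb of its start, against 4 for Tef. This order depended on the settings, as both had 4 when peaks closer than 1000 bp were merged and 3 with a score of 100 or more, and Tef had 9 against 6 when any annotated transcript start was used. It lies on the minus strand of chromosome 11 (chr11:98767932-98775333), where its end overlaps the end of Thra, the gene of TRα1 itself, on the opposite strand. Of its 6 TRBS, 3 lay around its own start. The strongest was in intron 1 of the 8-exon transcript, at chr11:98772972-98774162, with its summit 1368 bp downstream of the TSS. It had 29 fragments (19.4 to 41.6) over a background of 1.22, a fold of 13.5. At 1191 bp, it was wide, since the median width of all TRBS was 424 bp. Its DR4, AGCTCAAGGTTGGTCA at chr11:98773139-98773154, had 2 mismatches and lay 818 bp from the summit, outside the window printed above. The promoter TRBS at chr11:98775567-98775870, 346 bp upstream of the TSS, had 17 fragments (9.90 to 27.2) over 1.22, a fold of 8.12. An intergenic TRBS at chr11:98783085-98783564, 8018 bp upstream, had 23 fragments (14.6 to 34.5) over 1.52, a fold of 9.52. The intervals of these 3 TRBS overlapped, so their order is not resolved at this depth.

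The other 3 TRBS within 30 kb of Nr1d1 were shared with Thra. All lay in intron 1 of Thra, 9990, 10954 and 12057 bp downstream of the Thra TSS, and 24705, 23741 and 22638 bp downstream of the Nr1d1 TSS, in the same order. They were weak. The TRBS at chr11:98750478-98750769 had 10 fragments (4.80 to 18.4), the one at chr11:98751055-98751931 had 11 (5.49 to 19.7), and the one at chr11:98752320-98752812 had 10 (4.80 to 18.4). Their folds were 6.84, 8.39 and 7.69. None held a DR4 with at most 3 mismatches. The nearest protein-coding TSS was that of Thra for all 3, and Med24 also had its TSS within 30 kb of them. These 3 were the only TRBS within 30 kb of Thra, since the 3 around the start of Nr1d1 lay 33327, 35041 and 42713 bp from the Thra TSS. Within 100 kb, 6 TRBS were shared by both genes. The stretch where the genes overlap, chr11:98767932-98769006 (1075 bp), held 0 TRBS. The 1 remaining TRBS of Nr1d1 within 100 kb, 94735 bp upstream, lay in an intron of Wipf2 and had 10 fragments (4.80 to 18.4).

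Nr1d2 encodes REV-ERBβ, the close relative of REV-ERBα, and showed another arrangement, with a single TRBS within 30 kb that was the strongest of all 18. It lay in intron 1, 775 bp downstream of the TSS, at chr14:18238080-18238603 (gene at chr14:18204054-18239127, minus strand). It had 73 fragments (57.2 to 91.8) over a background of 1.22, a fold of 33.4, and 96.8% of all TRBS had fewer fragments. Its interval did not overlap that of any of the 6 TRBS of Nr1d1, the highest of which ended at 41.6. It held no DR4 with at most 2 mismatches. Instead, the window printed above shows 2 exact half-sites, AGGTCA and GGGTCA, in the same orientation and 9 bp apart (DR9). A pair of exact half-sites in any orientation with a spacer of 0 to 10 bp was present in 383 of all 5107 TRBS (7.5%) and in this one alone of the 18. No other protein-coding TSS lay within 30 kb. The second TRBS of Nr1d2, 32228 bp upstream, was in the promoter of Rpl15 and had 16 fragments (9.15 to 26.0). It held the DR4 AGGACACGCAAGGTCC, with 2 mismatches.

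The Period genes encode the repressors that close the loop, and they differed from each other. Per1 (chr11:69095217-69109960, plus strand) had no TRBS within 100 kb, and its closest was 127373 bp upstream, nearest to Slc25a35, with 13 fragments. Per2 (chr1:91415982-91459324, minus strand) had 2 within 30 kb, both deep in the gene. The stronger, in intron 9 of the 23-exon transcript at chr1:91436354-91436870, 22674 bp downstream of the TSS, had 30 fragments (20.2 to 42.8) over 1.52, a fold of 12.3. Its summit was 22612 bp from the TSS of Hes6, so both genes claim it at almost the same distance. The other, in intron 4 at chr1:91446065-91446368, 13156 bp downstream, had 16 fragments (9.15 to 26.0) over 1.83, a fold of 6.01. Neither held a DR4 with at most 2 mismatches. Another TRBS, 35370 bp upstream of Per2, lay in the promoter of Traf3ip1, with 13 fragments (6.92 to 22.2) and a score of 47.

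Per3 (chr4:151003652-151044665, minus strand) carried its TRBS in the promoter, 228 bp upstream of the TSS, at chr4:151044668-151045110. It had 47 fragments (34.5 to 62.5). The background there, 2.74, was the highest of the 18, so the fold was 12.8, well below the fold of 25.1 at the Bhlhe40 promoter for the same number of fragments. The TRBS held no DR4, with 4 mismatches in the closest match, and its GC content was 70.9%, against a median of 51.1% for all TRBS. Vamp3 also had its TSS within 30 kb. A TRBS 85716 bp upstream (16 fragments) and another 56469 bp downstream (10 fragments) both lay in introns of Camta1. Cry1, the partner of the PER proteins in repression, had no TRBS within 100 kb (gene at chr10:85131700-85185064, minus strand), and its closest was 261036 bp downstream, nearest to Ric8b, with 31 fragments. The weakest of all TRBS had 5 fragments, so weaker occupancy at Per1 or Cry1 would not be in the list.

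Dbp and Tef encode relatives that bind D-boxes, and both had a TRBS with a DR4 at or beside the summit. Dbp (chr7:45705088-45710203, plus strand) had a single TRBS within 100 kb, in intron 2 of its 4-exon transcript at chr7:45707436-45708227, 2770 bp downstream of the TSS. It had 58 fragments (44.0 to 74.98) over a background of 0.706, a fold of 34.6. Its DR4, read on the minus strand as GGGTCAGCCGAGGACA at chr7:45707848-45707863, had 2 mismatches and was centred 2 bp from the summit. An E-box lay 30 bp from the summit, in the window printed above. The summit was 31 bp upstream of the start of a non-coding Dbp transcript with a retained intron. The region is dense in genes, and the TSSs of 7 other protein-coding genes (Car11, Fam83e, Ntn5, Rpl18, Sec1, Spaca4 and Sphk2) lay within 30 kb of this summit, although that of Dbp was the nearest.

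Tef (chr15:81802421-81826863, plus strand) had the most TRBS within 100 kb, 10 in all, of which 4 lay within 30 kb. The strongest, at chr15:81774425-81775164, was 27554 bp upstream of the TSS, in intron 7 of Zc3h7b. It had 61 fragments (46.7 to 78.4) over 0.430, the floor of the background, a fold of 43.4, which was the highest fold of the 18. It held the DR4 AGTTCATTGCAGGCCA, with 2 mismatches, 66 bp from the summit, and a single exact half-site, GGGTCA, on the other side. The TRBS in intron 1 of Tef, at chr15:81810287-81811025, 8348 bp downstream, had 24 fragments (15.4 to 35.7) over 1.01, a fold of 12.4. Its DR4, AGGTTAGCGGAGGGCA on the minus strand, had 2 mismatches and was centred 4 bp from the summit. Another protein-coding transcript of Tef starts 277 bp downstream of this summit. The other 2 were intergenic and held no DR4. The one 5869 bp upstream, at chr15:81796370-81796793, had 14 fragments (7.65 to 23.5) and a fold of 10.5, and the one 26434 bp downstream, at chr15:81828676-81828957, had 7 (2.81 to 14.4), a fold of 5.38 and a score of 40.

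A run of 5 further TRBS lay between 31955 and 43389 bp downstream of the Tef TSS, beyond the 3′ end of the gene and nearer to the TSS of Tob2. Their fragments were 26, 9, 28, 43 and 35 in order of distance. The strongest of them, at chr15:81838343-81840229, was 1887 bp wide and had a fold of 28.2. The first held GGGTCAAAAGGGGTCA, a DR4 of exact GGGTCA half-sites. The 30 kb limit fell close to this run. The outermost TRBS inside it were the pair of Tef at 26434 and 27554 bp, with 7 and 61 fragments, and the first outside it were that of Tef at 31955 bp and that of Nr1d2 at 32228 bp, with 26 and 16.

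Bhlhe40, which encodes a repressor acting on E-boxes (chr6:108660629-108666925, plus strand), had 3 TRBS within 30 kb, of unequal strength. The promoter TRBS at chr6:108659404-108660588, with its summit 825 bp upstream of the TSS, had 47 fragments (34.5 to 62.5) over 0.913, a fold of 25.1. It was 1185 bp wide, its GC content was 70.3%, and it held no DR4, with 3 mismatches in the closest match. The 2 downstream TRBS were intergenic. The one at chr6:108668294-108668763, 7843 bp downstream, had 16 fragments (9.15 to 26.0) over 1.52, a fold of 6.74. The one at chr6:108678053-108678333, 17562 bp downstream, had 6 (2.2 to 13.1), a fold of 4.41 and a score of 24, the weakest of the 18. No other protein-coding TSS lay within 30 kb of any of the 3. Between 30 and 100 kb, Bhlhe40 had a TRBS 49381 bp downstream (11 fragments) and another 89529 bp upstream (10 fragments).

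**Figure D2:**
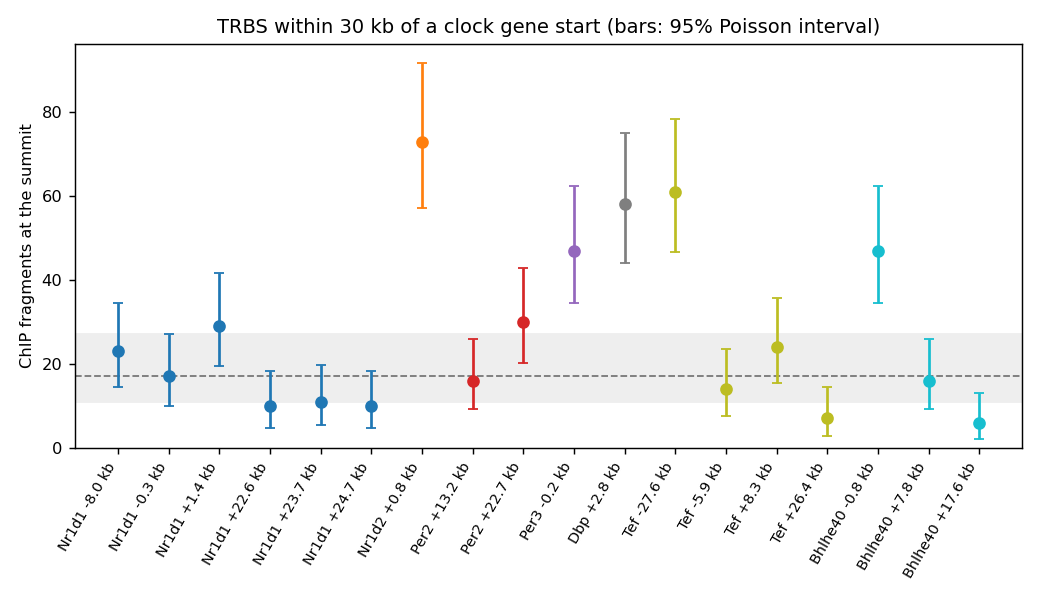
ChIP fragments at the summit (y axis) of the 18 TRBS within 30 kb of a clock gene TSS, grouped and coloured by gene (x axis, gene and distance in kb), with 95% Poisson intervals as bars. The dashed line is the median of all 5107 TRBS (17) and the band their quartiles (11 to 27); the strongest TRBS of Nr1d2, Per3, Dbp, Tef and Bhlhe40 have intervals above the band, and the Nr1d1 sites lie in or near it.

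Ordered by the strongest TRBS within 30 kb, the genes were Nr1d2 (73 fragments), Tef (61), Dbp (58), Bhlhe40 and Per3 (47 each), Per2 (30) and Nr1d1 (29). The intervals of neighbours in this order overlapped, so no step between neighbours is resolved. By the sum over all TRBS within 30 kb, the order was different, with Tef at 106 fragments, Nr1d1 at 100, Nr1d2 at 73, Bhlhe40 at 69, Dbp at 58, Per3 at 47 and Per2 at 46. The fragments of Nr1d1 were spread over 6 TRBS, while Nr1d2, Dbp and Per3 had theirs in 1. Of the 100 fragments of Nr1d1, 31 came from the 3 TRBS in Thra, and without these Nr1d1 had 69, the same as Bhlhe40 and fewer than Nr1d2. TRBS of the same gene come from the same pair of libraries and are not replicates.

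**Figure D3:**
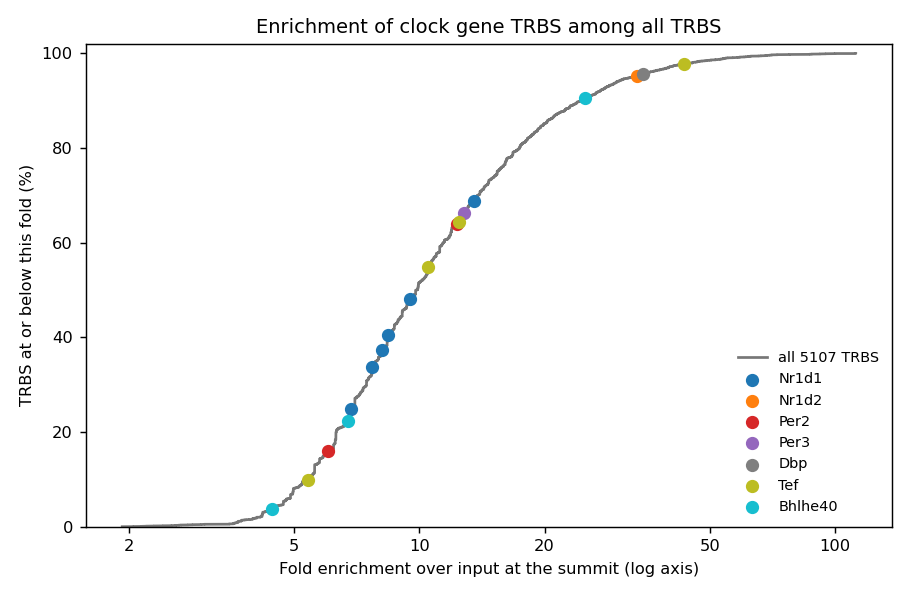
Fold enrichment over input at the summit (x axis, log scale) against the percentage of TRBS at or below that fold (y axis), with the line for all 5107 TRBS and points for the 18 within 30 kb of a clock gene, coloured by gene. The strongest TRBS of Tef, Dbp and Nr1d2, with folds of 43.4, 34.6 and 33.4, lie at the upper end, and the 6 of Nr1d1 lie between 6.84 and 13.5.

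The position of the 18 TRBS relative to genes was varied. Introns held 10, promoters, from 1000 bp before a TSS to 100 bp after it, held 3, and 5 were intergenic, whereas introns held 48.8%, promoters 7.24% and intergenic sequence 38.2% of all TRBS. Exons held none of the 18. The summit was downstream of the TSS of the clock gene for 12. The nearest protein-coding TSS was that of the clock gene for 14 of the 18 (77.8%), the exceptions being the 3 TRBS in Thra and the one shared by Per2 and Hes6. With all annotated genes counted, and not only protein-coding ones, the share was 55.6%. For 7 of the 18, no other protein-coding TSS lay within 30 kb. Among the 15 TRBS between 30 and 100 kb, the clock gene was the nearest for 4 (26.7%).

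Sequence elements were not used to choose the genes. Under the limit of 2 mismatches, 4 of the 18 TRBS held a DR4 (22.2%, Wilson interval 9.0 to 45.2%), as did 1633 of all 5107 (32.0%, 30.7 to 33.3%), so that the wide interval of the clock gene TRBS holds the share of all TRBS. The search covered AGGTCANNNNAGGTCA on both strands of the whole TRBS. The 4 were at Nr1d1, Dbp and Tef. With at most 1 mismatch, the count was 0 of 18 (upper bound 17.6%) and 7.23% of all TRBS. Single half-sites were present within 100 bp of the summit in 9 of the 18 (50.0%, 29.0 to 71.0%) and in 58.8% of all TRBS. Other clock motifs were searched within 100 bp of the summit. The RevDR2, AGGTCANNAGGTCA, on which REV-ERB can bind as a pair, was found with at most 2 mismatches in 3 of the 18 (16.7%, 5.84 to 39.2%) and in 5.33% of all TRBS. The D-box, TTACGTAA or TTATGTAA on either strand, was found in 1 of 18 (5.56%, 0.988 to 25.8%) and in 1.68% of all TRBS. The 1 was the Per3 promoter TRBS, which held 2 D-boxes, and the window printed above holds 1 of them in lower case, as ttacataa on the plus strand. The ROR element, searched without mismatches, was found in 0 of 18 and in 0.705% of all. A match is a stretch of letters and does not show which protein was bound.

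The E-box CACGTG, the element on which CLOCK and BMAL1 bind, was held by a larger share of the clock gene TRBS than of all TRBS. It was found in 9 of the 18 TRBS (50.0%, 29.0 to 71.0%) and in 459 of all 5107 (8.99%, 8.23 to 9.80%). It was present in 10.6% of the 2913 TRBS within 30 kb of any protein-coding TSS and in 14.1% of the 370 in promoters. By gene, it was present in 5 of the 6 TRBS of Nr1d1, in the single TRBS of Nr1d2 and of Dbp, in 1 of 4 for Tef and 1 of 3 for Bhlhe40, and in none for Per2 and Per3. The TRBS in intron 1 of Nr1d1 held 4 E-boxes, of which 1 was 88 bp from the summit. In the Nr1d1 promoter, an E-box was 19 bp from the summit, and in the shared TRBS 9990 bp into Thra it was 35 bp from the summit. Nr1d1 accounted for much of the share, which was 33.3% (4 of 12, 13.8 to 60.9%) without its TRBS. Within 100 bp of the summit, the share was 22.2% (4 of 18, 9.0 to 45.2%), against 4.44% of all TRBS. Of these 4 TRBS, 3 were of Nr1d1 and 1 of Dbp, so that without Nr1d1 the share was 8.33% (1 of 12, 1.49 to 35.4%). No test was made of this difference, since the genes were chosen with these data known and their TRBS are not independent of each other. Some of the genes are also known E-box targets.

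**Figure D4:**
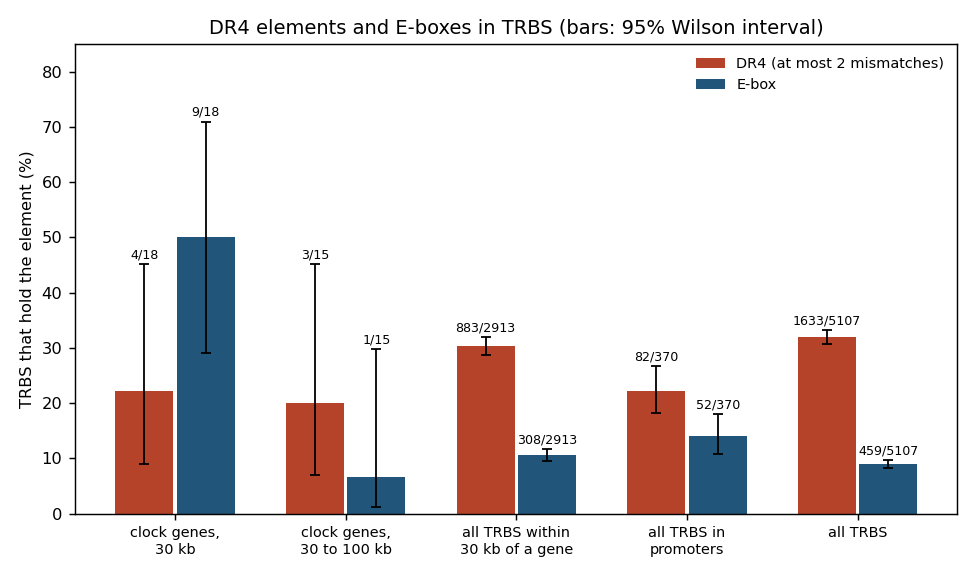
Percentage of TRBS (y axis) that hold a DR4 with at most 2 mismatches or an E-box, with the number of TRBS above each bar and 95% Wilson intervals, for 5 groups of TRBS (x axis). The E-box bar of the clock gene TRBS within 30 kb stands at 50.0%, against 8.99% for all TRBS, while the DR4 intervals of the clock gene TRBS hold the share of all TRBS.

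Per length, the 18 TRBS held 15 E-boxes in 10338 bp, or 1.45 per kb. The rest of the sequence within 30 kb of the 10 TSSs held 93 in 589672 bp, or 0.158 per kb, all TRBS held 0.217 per kb, and the assembled chromosomes held 0.101 per kb. Of the 108 E-boxes within 30 kb of the 10 TSSs, 15 (13.9%) lay in TRBS, which covered 1.72% of this sequence, and 8 of the 15 were at Nr1d1. Without Nr1d1, 7 of 89 E-boxes (7.87%) lay in TRBS, which covered 1.24% of the sequence. These shares are a description and were not tested. GC content moved with this result. The 18 TRBS had a median GC content of 54.8%, against 51.1% for all TRBS, and among the 2007 TRBS with a GC content of at least 52.8%, the lower quartile of the 18, the E-box share was 11.2%. The part of GC content in the difference was not tested. The TRBS of clock genes between 30 and 100 kb held an E-box in 1 of 15 (6.67%, 1.19 to 29.8%).

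DR4 elements were also searched in the whole sequence around the clock genes, of which TRBS covered 1.72%. Within 30 kb of the 10 TSSs there were 10 DR4 with at most 1 mismatch, and none lay in a TRBS. They were found at Nr1d1, Per1, Per2, Per3, Dbp and Cry1. Per1 had AGGTCATGCTAGGTTA at chr11:69069033-69069048 and AGGTCTCAGAAGGTCA at chr11:69079023-69079038, 26177 and 16187 bp upstream of its TSS, and Cry1 had AGTTCAGTGCAGGTCA at chr10:85211574-85211589, all with 1 mismatch and with no TRBS in the surrounding 100 kb. At Per3, AGGTCAGACCAGGACA lay 2790 bp upstream of the TSS, 2562 bp from the summit of the promoter TRBS that itself held no DR4. With at most 2 mismatches, there were 95 DR4, of which 5 (5.26%) lay in a TRBS. This share was not tested.

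Among 22 other genes of the clock, 10 had a TRBS within 30 kb, against 16.7% of all protein-coding genes. With a score of at least 60, 7 of the 22 had one, against 14.1%. The 10 genes had 19 TRBS in all, 3 of which held a DR4, as did 32.0% of all TRBS. These genes were also chosen with earlier results of these data known, so the counts are a description. Of 10 genes of transcription factors, 5 had a TRBS within 30 kb. Nfil3, a repressor on D-boxes, had 3, the strongest with 30 fragments (20.2 to 42.8) and a DR4 with 2 mismatches. Hlf, a relative of Dbp and Tef, had 1 with 31 fragments (21.1 to 44.0), 27177 bp upstream. Cry2, the relative of Cry1, had 1 with 12 fragments (6.20 to 20.96) that held a DR4 with 1 mismatch. Bhlhe41, the relative of Bhlhe40, had 1 in its promoter with 12 fragments and a score of 47, and Ciart had 2, the stronger with 11 fragments and a score of 24. Clock, Npas2, Rora and Rorb were among those with none. Of 8 genes for kinases and protein turnover, Usp2 (3 TRBS, up to 30 fragments), Gsk3b (2, up to 12) and Csnk1e (1, 10 fragments) had one, and Csnk1d, Fbxl21, Btrc and Fbxw11 were among those with none. Of 4 output genes, Por had 4 TRBS, the strongest with 40 fragments (28.6 to 54.5), and Alas1, which encodes an enzyme of haem synthesis, had 1 with 24 (15.4 to 35.7), whereas Nampt and Wee1 had none. The E-box share of the 19 TRBS was 10.5% (2 of 19, 2.94 to 31.4%) over the whole TRBS and 15.8% (3 of 19, 5.52 to 37.6%) within 100 bp of the summit, a window that can reach past the edge of a TRBS. The shares of all TRBS were 8.99% and 4.44%, and those of the 18 clock gene TRBS 50.0% and 22.2%. Over the whole TRBS, the interval of the 19 ends at 31.4%, little above the 29.0% at which that of the 18 starts. Within 100 bp of the summit, the 2 intervals overlap widely. These differences were not tested.

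Of 6 genes that mark brown adipocytes, 4 (Ucp1, Cidea, Ppargc1a and Pparg) had a TRBS within 30 kb, and Prdm16 and Dio2 had none. Of all protein-coding genes, 16.7% had one. The strongest TRBS of these markers was that of Ucp1, with 362 fragments (326 to 401), above every TRBS of the clock genes. The strongest of Ppargc1a had 65, while those of Pparg and Cidea had 16 and 13, below the median of 17 for all TRBS. Occupancy is not expression, so this count does not show the purity of the tissue, and no transcript level of any clock gene was measured in these libraries. The time of day at which tissue was collected is not given in the sources used here.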

How the data were processed

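ChIP-seq data of GS-tagged TRα1 in brown adipose tissue were analysed (1 ChIP and 1 input library, GRCm38). Per the labels, the authors used Bowtie2 2.3.2.2 and MACS2 2.1.1.20160309.6, and the study's methods aligned reads with default settings. The deposited list held 5107 peaks called in the ChIP against the input library. The deposited fold is the ratio of ChIP pileup to background at the summit, each with a pseudocount of 1. The background had a floor of 0.430, which TRBS at unrelated places shared. The deposited −log10 of the p-value comes from the authors' Poisson test. The deposited score is 10 times the −log10 q-value, rounded down. Scores under 60, which the study filtered out, were present for 897 peaks of the list, and all were kept. No column of a comparison between conditions was used.

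Read totals were not used here. Fold and p-value together gave the number of ChIP fragments and the background at each summit, with a whole number within 0.0005 of the −log10 p-value for 5090 of 5107 peaks and a single solution for all 33 TRBS described. Distances ran from the summit to the 5′ end of the gene in GENCODE M21. DR4 elements were searched on both strands of the whole TRBS with at most 2 mismatches over 12 half-site bases, E-boxes over the whole TRBS, and the other motifs within 100 bp of the summit. Shares had Wilson and fragment numbers exact Poisson intervals (95%). With 1 library of each kind, no test was made. The scripts (Python 3.11.15, numpy 2.4.6, scipy 1.17.1, pandas 2.3.3) were tested on simulated data. The alternatives were other scores, distances, transcript starts, mismatch limits and search windows. The clock genes, the 22 other clock genes and the marker genes were chosen with earlier results of these data known. By the rule for named genes, all 10 clock genes and each of their TRBS within 30 kb were named, with the strongest beyond that, the other clock genes with a TRBS within 30 kb, and genes that share a site. Some items under this rule are not reported here.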

Additional observations from a re-analysis of the deposited data

How the results depend on the processing

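With 1 ChIP and 1 input library, no replicate could be left out, and spread between replicates is unknown. No paired analysis was possible because each group has 1 library and no result comes from a test. Of 49 alternatives for 10 results, 34 kept a count within 1.5 times its value, or a share or median within a 95% interval, and 15 did not. For the median this was the Poisson interval of a single count of 20 (12.2 to 30.9), which does not measure the spread between the 18 TRBS. The median fragments of the clock gene TRBS went from 20 to 16 with a limit of 100 kb, from above to below the 17 of all TRBS. The number of clock genes with a TRBS within 30 kb stayed between 6 and 8.

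The 18 TRBS within 30 kb became 11 with a score of at least 100, 10 within 10 kb and 28 within 50 kb, and the 33 within 100 kb became 18 with a score of at least 100. With any annotated transcript start, 26 TRBS of 8 genes fell within 30 kb, as Tef went from 4 to 9, Arntl from 0 to 2 and Per3 from 1 to 2. The DR4 share of clock gene TRBS was 0% with at most 1 mismatch and 50.0% with at most 3, and that of all TRBS was 7.23% and 72.5%, 27.1% within 100 bp of the summit and 34.4% with a score of at least 60. The 3659 protein-coding genes became 1775 within 10 kb and 8393 within 100 kb, and the 10 other clock genes became 17 within 100 kb. The E-box share over the whole TRBS (50.0%) and its alternatives were chosen after seeing the data. It was 22.2% within 100 bp of the summit, 8.33% there without Nr1d1, 33.3% over the whole TRBS without Nr1d1 and 56.3% with scores from 60. The number of fragments limits the order of the sites, since intervals as wide as 57.2 to 91.8 around 73 overlap those of neighbours.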
